A study of Mus musculus with 24 samples.

Results

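Plasminogen activation in the mouse choroid was examined through 8 genes: Plau, Plaur, Plat, Serpine2, Serpinb2, Anxa2 and S100a10, together with Serpinf1, which encodes pigment epithelium-derived factor (PEDF). The genes were listed by name for their roles, and all 8 were found among the 56065 genes of the table of normalized counts. The choroid is the vascular bed beneath the retina, and RNA was sequenced from choroidal tissue in 24 libraries. In its methods for cell sorting, the study uses the word for retinal pigment epithelium, choroid and sclera together. There were 4 libraries from wild type mice without laser (libraries 21, 22, 26 and 27) and 9 from wild type mice after laser (1, 2, 3, 11, 12, 13, 16, 17 and 19). Another 4 came from Ceacam1-/- mice without laser (23, 24, 25 and 28) and 7 from Ceacam1-/- mice after laser (4, 5, 6, 7, 14, 15 and 18). The knockout was present in every cell and not restricted to a tissue, and the controls were wild type littermates on the C57BL/6J background. In the laser groups each eye received 6 laser spots at 150 mW, with a spot size of 200 µm and a pulse of 100 ms, to induce choroidal neovascularization, the growth of new vessels from the choroid. The interval between laser and collection was not given in the sources used here. The labels do not say whether each library came from a separate animal, so p-values measure the spread between libraries. The Ceacam1 normalized count after laser ranged from 774 to 8367 in wild type (median 996, n = 9) and from 67.8 to 905 in Ceacam1-/- (median 335, n = 7). Without laser the count ranged from 958 to 5027 in wild type and from 405 to 1171 in Ceacam1-/- (n = 4 each). The genotypes overlapped only through Ceacam1-/- libraries 15 (905, laser) and 28 (1171, no laser), both rich in surface keratins (below). The other Ceacam1-/- libraries were at most 438 after laser and 508 without, below every wild type library of the same laser label. The reads kept in the knockout can come from exons outside the deleted part of the gene, which was not tested.

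Plasmin, the protease that dissolves fibrin and also cuts matrix proteins, is made from plasminogen by either of a pair of activators. Tissue-type activator (Plat) works mainly on fibrin, whereas urokinase (Plau) works on the cell surface, where it is held by the receptor Plaur. Serpine2 (protease nexin-1) and Serpinb2 (plasminogen activator inhibitor type 2) are serpins that block the activators, and Anxa2 and S100a10 form a cell-surface complex that binds plasminogen and Plat. PEDF belongs to the serpin family by its fold but does not inhibit proteases, and it is known as an anti-angiogenic and neurotrophic protein made by the retinal pigment epithelium.

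All 8 genes were detected, and their positions in GRCm39 are given 1-based. Plau (ENSMUSG00000021822) lies at chr14:20886722-20893453 on the plus strand. Plaur (ENSMUSG00000046223) lies at chr7:24161875-24175394 on the plus strand, 0.99 Mb from Ceacam1. Plat (ENSMUSG00000031538) lies at chr8:23247709-23272871 on the plus strand. Serpine2 (ENSMUSG00000026249) lies at chr1:79763323-79839144 on the minus strand, and Serpinb2 (ENSMUSG00000062345) lies on the same chromosome at chr1:107428593-107463208 on the plus strand. Serpinf1 (ENSMUSG00000000753) lies at chr11:75299998-75322362 on the minus strand. Anxa2 (ENSMUSG00000032231) lies at chr9:69360542-69399077 on the plus strand and S100a10 (ENSMUSG00000041959) at chr3:93462213-93474510 on the plus strand.

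Promoter sequence was read from RefSeq for the genes that the table of promoters held, which were 5 of the 8 (Plaur, Serpine2, Serpinb2, Serpinf1 and Anxa2; Plau, Plat and S100a10 were not matched). The letters TGANTCA, a pattern bound by AP-1 (dimers of Fos and Jun proteins), were searched on both strands of the 250 bases before each start. They were found in 3 of the 5 genes, against 6.75% of 32851 windows of this length. The last 120 bases before the start are shown for these 3 genes, because Plaur rose with laser and Serpinb2 and Anxa2 were highest in libraries rich in epithelial keratins (below), and for Serpinf1, which like Serpine2 has no match; capitals mark the match.
Plaur: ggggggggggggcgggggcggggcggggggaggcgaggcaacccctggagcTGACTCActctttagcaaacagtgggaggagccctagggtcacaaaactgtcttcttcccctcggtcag
Serpinb2: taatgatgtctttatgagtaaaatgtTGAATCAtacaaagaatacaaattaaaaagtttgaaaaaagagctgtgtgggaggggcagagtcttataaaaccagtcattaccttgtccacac
Anxa2: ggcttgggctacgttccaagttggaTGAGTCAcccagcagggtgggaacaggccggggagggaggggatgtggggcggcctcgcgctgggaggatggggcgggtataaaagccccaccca
Serpinf1: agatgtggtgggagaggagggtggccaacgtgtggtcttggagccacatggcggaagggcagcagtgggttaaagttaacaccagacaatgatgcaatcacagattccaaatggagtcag
These stretches are from GRCm38.p6 at chr7:24462363-24462482 (plus strand) for Plaur, chr1:107511303-107511422 (plus) for Serpinb2, chr9:69453563-69453682 (plus) for Anxa2 and chr11:75422624-75422743 (minus) for Serpinf1, each written 5′ to 3′ on the strand of the gene. The match lay at -69 to -63 relative to the start in Plaur, at -94 to -88 in Serpinb2 and at -95 to -89 in Anxa2. GGGCGG, the core of a GC box, was found in Plaur, Serpine2 and Anxa2 and in 32.7% of all windows, and TATAAA in Serpinb2 and Anxa2 and in 12.4% of all windows. A form of the NF-kappaB site was in none of the 5 genes and in 1.41% of all windows. These matches are letters in a window and were not tested as binding sites.

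Anxa2 had the highest level per kilobase of transcript, and Serpinb2 the lowest. The median over the 24 libraries was 9902 normalized counts per kilobase for Anxa2, 7066 for Serpine2 and 4863 for Serpinf1. The next genes lay lower, with 1413 normalized counts per kilobase for Plat, 1102 for S100a10, 305 for Plaur and 25.9 for Plau. Serpinb2 was at 7.86 normalized counts per kilobase and was above 0 in 20 of the 24 libraries. The ranges over libraries overlapped between every pair of neighbours in this order.

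**Figure D1:**
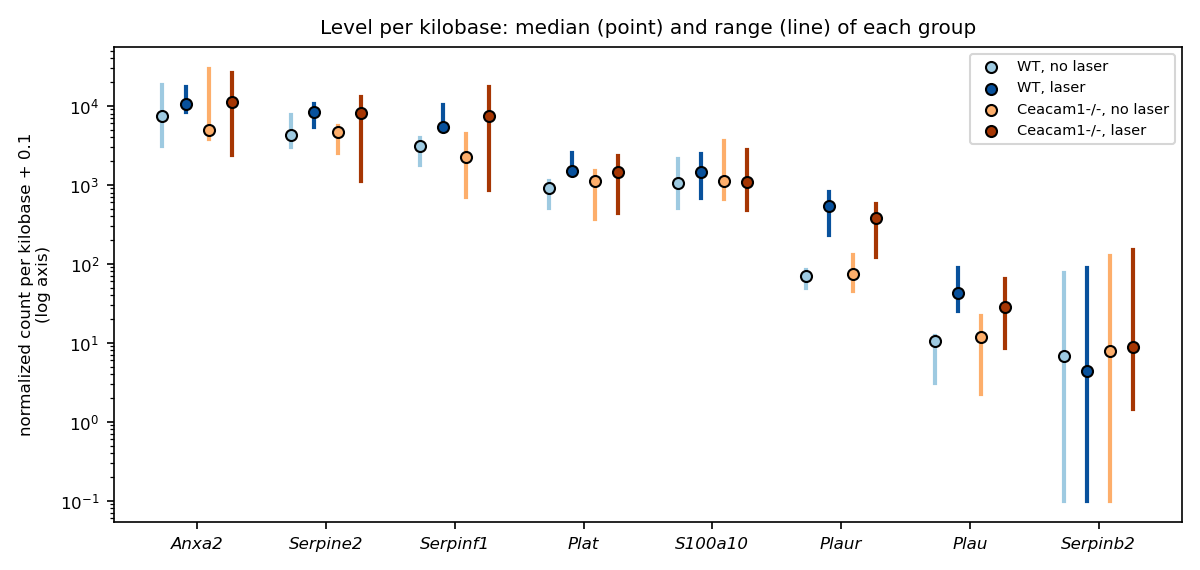
Normalized count per kilobase of the canonical transcript (plus 0.1, log axis) for the 8 genes, ordered by their median over 24 libraries, with the median (point) and range (line) of each of the 4 groups. The genes spread from 9902 for Anxa2 to 7.86 for Serpinb2.

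Several libraries stood apart in their cell type markers, and values without them are given where they moved a result. In 5 libraries the summed normalized count of 6 photoreceptor markers exceeded 400000. These were libraries 14 (825654), 15 (470580) and 18 (891136) of the Ceacam1-/- laser group, library 21 (475828) of the wild type group without laser and library 23 (519936) of the Ceacam1-/- group without laser. In another 5 libraries the summed normalized count of 4 keratins of surface epithelium, led by Krt12, exceeded 20000. These were libraries 15 (336932), 22 (286032), 28 (234288), 19 (58924) and 27 (27363), with library 15 in both sets. No marker of either list was at 0 in every library. Because tissue was sequenced in bulk, fewer cells of a type and less RNA per cell cannot be told apart.

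After laser, the urokinase receptor and its ligand rose in wild type choroid. Plaur was at 75.6, 130, 121 and 95.6 normalized counts in the 4 libraries without laser and between 355 and 1267 (median 838) in the 9 laser libraries. Every laser library lay above every library without laser, and the lowest of the 9, library 19, was one of those rich in keratins. The log2 fold change was 2.95 ± 0.40 (SE), with an adjusted p of 6.27e-05 by limma. Plau was at 7.11, 28.6, 20.2 and 28.8 normalized counts without laser and between 58.8 and 206 (median 99.9) with laser, again without overlap. How many of all genes separate the groups in this way was not counted, here or for Plat and Serpinf1 below. The log2 fold change of Plau was 2.37 ± 0.57 (adjusted p = 0.0147, limma), and it fell to 1.94 (adjusted p = 0.105) when library 21, the lowest without laser, was left out. Thus 2 of the 8 genes passed the test in wild type, both upward, where 5.28% of the 19950 genes tested were called and 4.23% were called higher with laser. With weights for library quality, or with only the wild type libraries fitted, the count was 5, with Plat, Serpine2 and Serpinf1 added. The share of all genes called rose as well in these fits, to 32.6% with the weights and 11.6% with only the wild type libraries.

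In Ceacam1-/- choroid Plaur rose as well, with more spread between the laser libraries. Plaur was at 70.2, 154, 74.8 and 200 normalized counts in the 4 libraries without laser and between 189 and 870 (median 584) in the 7 laser libraries. The laser libraries split into 4 high ones (4, 5, 6 and 7, between 584 and 870) and the 3 photoreceptor-rich ones (14, 15 and 18, between 189 and 254), and 6 of the 7 lay above all libraries without laser. The log2 fold change was 1.94 ± 0.41 (adjusted p = 0.0116, limma). The call was lost without library 25 (1.74, adjusted p = 0.0805) and when only the Ceacam1-/- libraries were fitted (adjusted p = 0.164). Plau was at 5.1, 50.4, 7.35 and 48 normalized counts without laser and between 20.1 and 149 (median 66.7) with laser. The groups overlapped, and the log2 fold change of 1.74 ± 0.60 did not pass the test (adjusted p = 0.0983, limma). Hence 1 of the 8 genes was called in Ceacam1-/-, against 3.72% of all genes called and 2.07% called higher with laser, and library weights made it 3 by adding Plau and Serpinf1, where 17.8% of all genes were called. Without the 5 photoreceptor-rich libraries Plaur changed by 2.41 and Plau by 1.84 on the log2 scale in Ceacam1-/- mice (adjusted p = 0.0313 for Plau, limma), in a fit that called 14.9% of all genes.

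**Figure D2:**
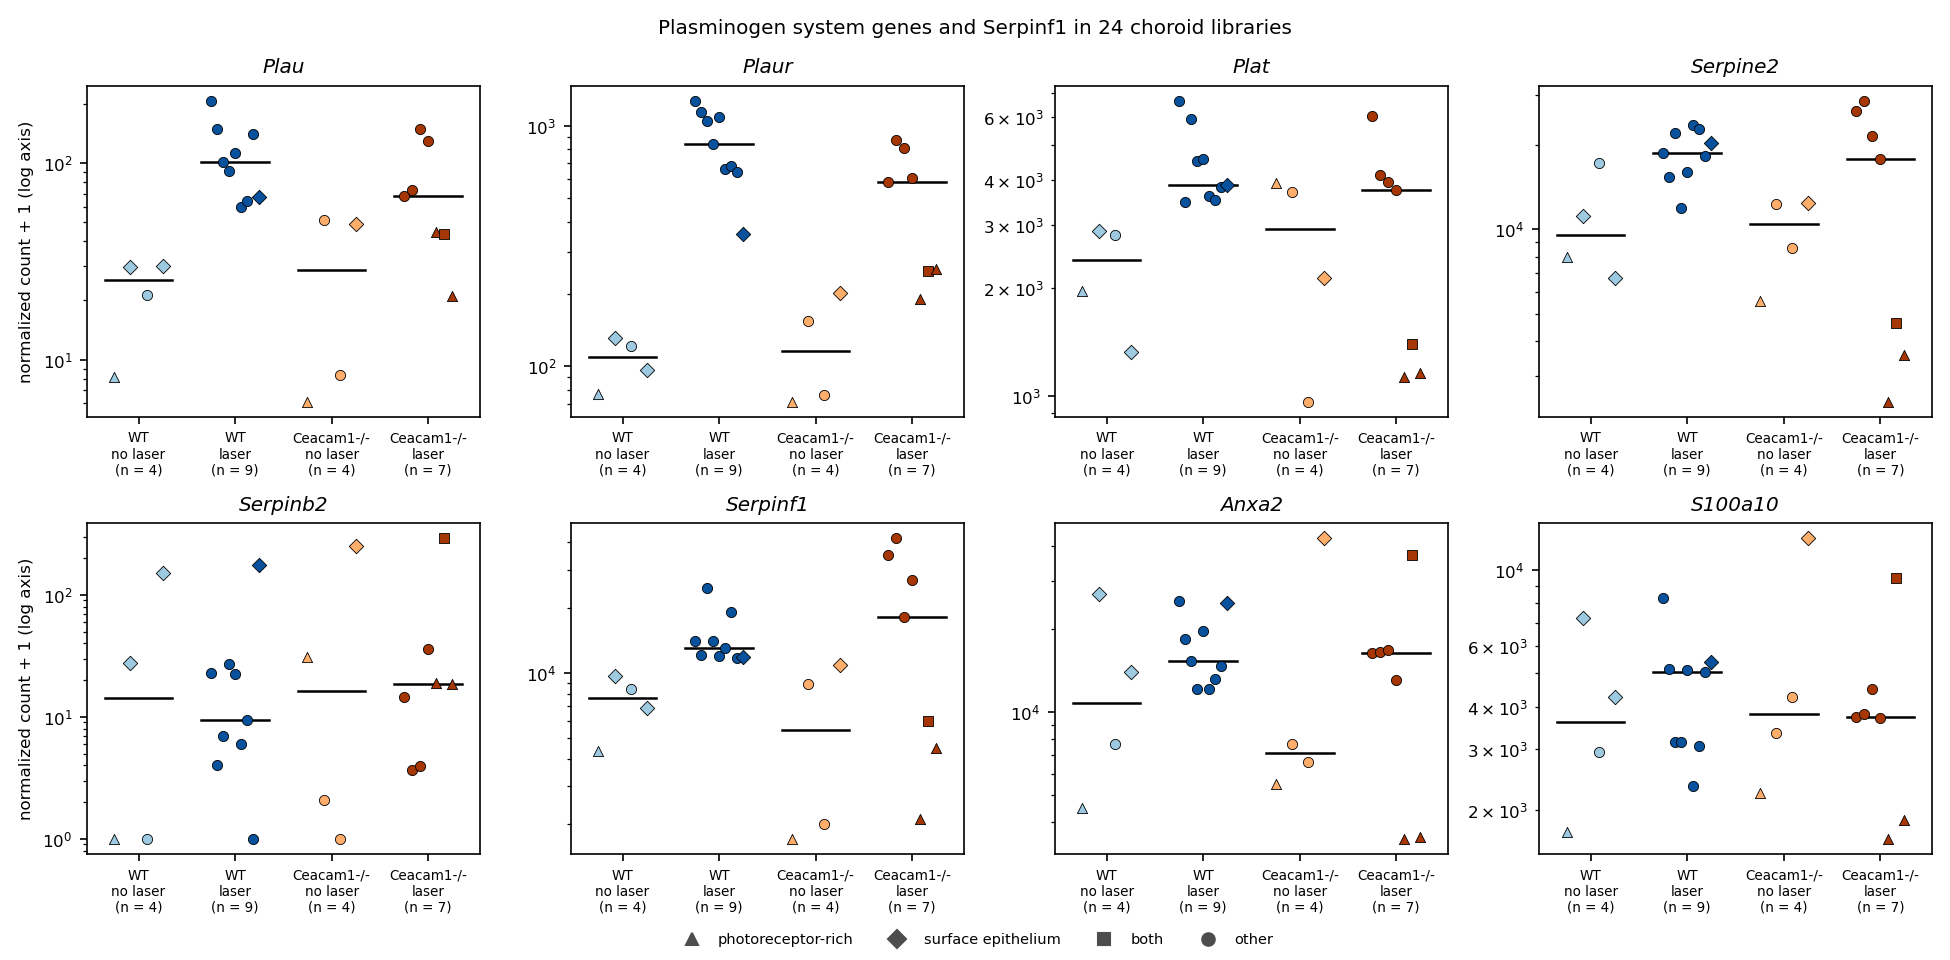
Normalized count plus 1 (log axis) of the 8 genes in each of 24 libraries by group, with the group median as a line and the shape of a point marking libraries rich in photoreceptor or surface epithelium markers. In wild type mice the 9 laser libraries lie above all 4 libraries without laser for Plau, Plaur, Plat and Serpinf1, and in Ceacam1-/- mice the photoreceptor-rich laser libraries lie below the other laser libraries for the same genes and Serpine2. The share of all genes that separate in this way was not counted, and Plat and Serpinf1 did not pass the test.

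The tissue-type activator Plat and the inhibitor Serpine2 gave smaller values that did not pass the test with all libraries. Plat was at 1967, 2888, 2810 and 1330 normalized counts in wild type without laser and between 3468 and 6637 (median 3886) with laser. The groups did not overlap, yet the log2 fold change of 1.01 ± 0.41 had an adjusted p of 0.163 (limma). In Ceacam1-/- mice Plat was at 3934, 3709, 965 and 2132 without laser and between 1128 and 6041 (median 3746) with laser, with a log2 fold change of 0.12 ± 0.43 (adjusted p = 0.903). Serpine2, which is secreted and binds heparin-like chains, was at 7983, 11171, 17167 and 6736 normalized counts in wild type without laser and between 11938 and 23471 (median 18712) with laser. These groups overlapped, and the log2 fold change was 0.86 ± 0.51 (adjusted p = 0.355, limma). The Ceacam1-/- counts of Serpine2 were 5561, 12321, 8555 and 12453 without laser and between 2438 and 28583 (median 17787) with laser, and the log2 fold change was 0.15 ± 0.54 (adjusted p = 0.902). The laser libraries of this genotype fell on both sides of the libraries without laser, with 4 above all of them and the 3 photoreceptor-rich ones (2438, 4645 and 3579) below all of them. Without the photoreceptor-rich libraries both genes were called in Ceacam1-/- mice, Plat with a log2 fold change of 1.15 ± 0.36 (adjusted p = 0.0361) and Serpine2 with 1.08 ± 0.28 (adjusted p = 0.0143). That fit called 14.9% of all genes, against 3.72% with all libraries. It left out the 3 lowest Ceacam1-/- laser libraries of both genes (14, 15 and 18).

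Serpinf1 (PEDF) was higher after laser in all 9 wild type laser libraries, but the difference did not pass the test across all genes. Without laser, Serpinf1 was at 4338, 9655, 8395 and 6880 normalized counts in wild type, and with laser it was between 11747 and 24681 (median 12975). The log2 fold change was 1.02 ± 0.62 (adjusted p = 0.364, limma). In Ceacam1-/- mice Serpinf1 was at 1705, 8827, 2005 and 10818 without laser and at 34857, 41889, 18047, 26761, 2107, 5967 and 4491 in laser libraries 4, 5, 6, 7, 14, 15 and 18. The first 4 of these laser libraries exceeded every library without laser, whereas the 3 photoreceptor-rich ones lay within their range. The log2 fold change was 1.52 ± 0.65 (adjusted p = 0.187), and without the photoreceptor-rich libraries it was 2.33 ± 0.43 (adjusted p = 0.00118, limma). The second fit left out the 3 lowest laser libraries and called 14.9% of all genes, against 3.72% with all libraries. In wild type mice the same omission gave 0.79, which was not called.

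**Figure D3:**
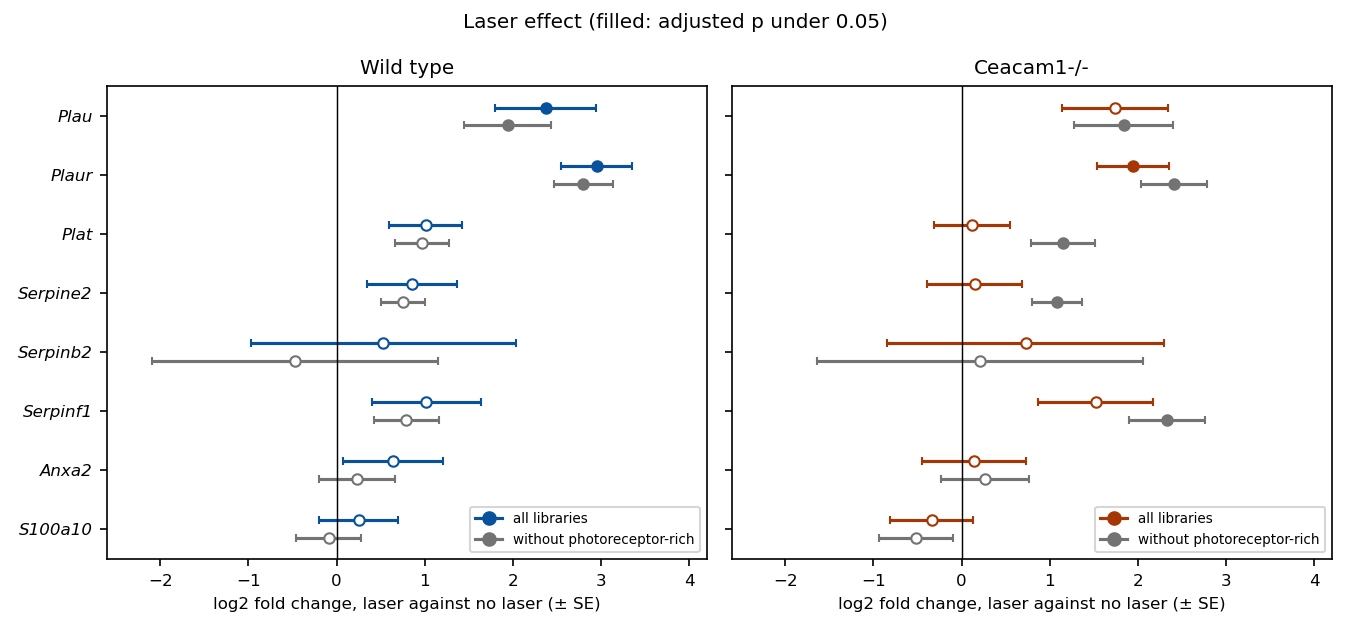
Log2 fold change with laser (± SE) of the 8 genes in wild type (left) and Ceacam1-/- choroid (right), with all 24 libraries (colored) and without the 5 photoreceptor-rich libraries (grey), where filled points have an adjusted p under 0.05. Plau and Plaur are filled in wild type under both, and in Ceacam1-/- mice the filled points go from Plaur alone to 5 genes, while the share of all genes called went from 3.72% to 14.9%.

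The remaining members, Serpinb2, Anxa2 and S100a10, passed the test in neither genotype. Serpinb2 was at 0, 26.7, 0 and 150 normalized counts in wild type without laser and between 0 and 174 (median 8.37) with laser. Libraries of Ceacam1-/- mice were at 29.7, 1.09, 0 and 250 without laser and between 2.68 and 291 (median 17.5) with laser. The high values came from all 4 groups, and 4 of the 5 highest (291 in library 15, 250 in 28, 174 in 19 and 150 in 27) belonged to the keratin-rich libraries, whose median was 174 against 5.96 in the other 19 libraries. The log2 fold change with laser was 0.53 ± 1.5 in wild type (adjusted p = 0.86) and 0.73 ± 1.57 in Ceacam1-/- (adjusted p = 0.827, limma). Leaving out the keratin-rich libraries left 2 wild type libraries without laser, both at 0, so that no fold is given for wild type, and in Ceacam1-/- the value was then 1.56 (adjusted p = 0.542). 

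Anxa2, the membrane-binding subunit of the plasminogen receptor complex, was at 4514, 26933, 7662 and 13961 normalized counts in wild type without laser and between 12117 and 25423 (median 15324) with laser. The Ceacam1-/- counts of Anxa2 were 5504, 7658, 6614 and 42869 without laser and between 3474 and 37385 (median 16363) with laser. The groups overlapped in both genotypes, and the log2 fold changes were 0.64 ± 0.57 (adjusted p = 0.538) and 0.14 ± 0.59 (adjusted p = 0.914, limma). S100a10, the small partner of Anxa2, ranged from 1643 to 12409 normalized counts over all libraries, with log2 fold changes of 0.25 ± 0.45 in wild type and -0.34 ± 0.47 in Ceacam1-/- (adjusted p = 0.771 and 0.719). For both genes 4 of the 5 highest libraries were keratin-rich, with a median Anxa2 count of 26933 against 13051 in the other 19 libraries and a median S100a10 count of 7260 against 3354. Without the keratin-rich libraries the log2 fold changes with laser were 1.43 (adjusted p = 0.222) and 0.54 (adjusted p = 0.638) for Anxa2 in wild type and Ceacam1-/-, and 0.86 (adjusted p = 0.405) and -0.08 (adjusted p = 0.947, limma) for S100a10. Without the photoreceptor-rich libraries the wild type value of Anxa2 was 0.23 (adjusted p = 0.8), and leaving out single libraries gave values between 0.23 and 1.09. The keratin sums fall into separate sets of libraries, so a relation over all 24 libraries can rest on the difference between those sets. There r with the keratin sum was 0.78 for Serpinb2, 0.62 for Anxa2 and 0.59 for S100a10 (permutation test, adjusted p = 0.00608, 0.0339 and 0.038). Spearman's coefficients were 0.68, 0.45 and 0.45 (permutation test, adjusted p = 0.0277, 0.167 and 0.158). Within the 9 wild type laser libraries r with the keratin sum was 0.49 for Serpinb2, 0.26 for Anxa2 and 0.00 for S100a10, none of them with an adjusted p under 0.05 (exact permutation test). Without libraries 1 and 19, the 2 farthest of these 9, r was 0.28, 0.69 and 0.55, so these values rest on few libraries. Beyond this, the part of these cells in the values of the 3 genes was not tested.

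Considered as a list, the 8 genes had a median log2 fold change with laser of 0.94 in wild type, with 8 of 8 positive, beside -0.1 over all 19950 genes tested. Serpinb2 was positive on the log2 scale only, since its mean normalized count was 44.1 without laser and 29.6 with laser, and without the photoreceptor-rich libraries Serpinb2 (-0.47) and S100a10 (-0.09) were negative. In Ceacam1-/- mice the median was 0.44, with 7 of 8 positive, beside 0.02 over all genes.

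The laser response of no member differed between genotypes by the interaction test. The interaction, which is the log2 fold change with laser in Ceacam1-/- minus that in wild type, was -1.01 ± 0.57 for Plaur (adjusted p = 0.64, limma) and -0.63 for Plau (adjusted p = 0.775). Without the photoreceptor-rich libraries these values were -0.39 ± 0.49 and -0.10 ± 0.74, and without the keratin-rich libraries -0.86 ± 0.65 and -0.75 ± 1.0. Across all genes 0% of 19950 passed this test, and 1241 had an unadjusted p under 0.05. The largest negative value after Plaur was that of Plat, at -0.9 (adjusted p = 0.641), which became 0.19 without the photoreceptor-rich libraries. Serpinf1 went the other way, from 0.50 with all libraries to 1.54 ± 0.57 without the photoreceptor-rich ones (adjusted p = 0.865).

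Genotypes were also compared directly. Without laser, the adjusted p was 0.999 for each of the 8 genes, and 0% of 20057 genes were called, with 307 at an unadjusted p under 0.05. The deleted gene Ceacam1 was thus not called either, so this fit can miss a true difference. With DESeq2 and sex as a covariate, the study reported a small set of genes that differed between healthy choroids of these genotypes. With laser, 7 of the 8 genes were lower in Ceacam1-/- mice on the log2 scale, with a median of -0.61 beside 0.01 over all genes. None passed the test, where 0.0202% of 19757 genes were called. An unadjusted p under 0.05 (limma) was found for 4479 genes, or 22.7%. Plaur differed by -0.88 ± 0.34 (adjusted p = 0.169, limma), Plat by -0.77 ± 0.33 (adjusted p = 0.192) and Plau by -0.69 ± 0.38 (adjusted p = 0.28). For each of these genes, the 3 libraries below every wild type laser library were the photoreceptor-rich libraries 14, 15 and 18. Without the photoreceptor-rich libraries the difference was -0.19 ± 0.28 for Plaur, 0.02 ± 0.19 for Plat and -0.04 ± 0.35 for Plau, and without the keratin-rich libraries it was -0.90, -0.65 and -0.68. Serpinf1, although lower by this measure, had the higher mean normalized count in Ceacam1-/- laser libraries (19160 against 14718 in wild type). Serpinf1 differed by -0.23 with all libraries and by 1.02 without the photoreceptor-rich ones, and neither value passed the test. These comparisons share libraries with the laser comparisons and are not independent of them.

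Other genes of the system were taken from 6 lists of 30 genes, of which 20 had a mean of at least 10 normalized counts and were tested; the remaining 10 included Plg, the carboxypeptidase Cpb2 and the fibrinogen chains Fga, Fgb and Fgg. In wild type 5 of the 20 rose with laser and none fell. Both chains of the integrin Mac-1, which binds Plaur and fibrinogen on leukocytes, were among them: Itgb2 went from a mean of 138 ± 33.2 normalized counts (SD, n = 4) to 1343 ± 285 (n = 9), a log2 fold change of 3.27 (adjusted p = 2.57e-06, limma). Itgam, its other chain, changed by 2.26 (adjusted p = 0.00661). The plasma protease inhibitor A2m rose by 1.82 (adjusted p = 0.00658), from 1683 ± 438 to 6812 ± 3637 normalized counts, and F13a1, the transglutaminase subunit that crosslinks fibrin, rose by 1.88 (adjusted p = 0.0107). Serpinf2, the main inhibitor of plasmin, changed by 1.87 (adjusted p = 0.0442) from a mean of 11.1 to 28.9 normalized counts, and the call was lost under 5 of 12 alternative settings and in 11 of 13 fits that left out a single library. Over those settings the log2 fold change of Serpinf2 was between 1.03 and 2.41, and over the single omissions between 1.34 and 2.56. Without library 21, Itgam (adjusted p = 0.0612) and F13a1 (adjusted p = 0.0846) lost their calls. Over all single omissions their log2 fold changes were at least 1.82 and 1.54. A2m lost its call without the keratin-rich libraries (adjusted p = 0.165), where its log2 fold change was 1.62 ± 0.55. In Ceacam1-/- mice Itgb2 rose by 2.16 (adjusted p = 0.0016), from 190 ± 71.8 (n = 4) to 946 ± 518 (n = 7), while F13a1 (1.57, adjusted p = 0.0536) and Itgam (1.63, adjusted p = 0.0728) missed the threshold. The call of Itgb2 was lost when only the Ceacam1-/- libraries were fitted (adjusted p = 0.118). In this genotype 1 of the 20 genes rose and 1 fell, beside 3.72% of all genes called, and in wild type the share of all genes was 5.28%.

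Among the 5 PEDF receptor genes, Pnpla2, a lipase that binds PEDF, fell in Ceacam1-/- mice after laser by 1.30 on the log2 scale (adjusted p = 0.0472, limma). Its mean went from 3557 ± 2047 (n = 4) to 1358 ± 582 normalized counts (n = 7), and in wild type from 3670 ± 1183 (n = 4) to 1958 ± 307 (n = 9), where the log2 fold change of -0.87 did not pass the test (adjusted p = 0.16). The call in Ceacam1-/- mice was lost in 7 of 13 alternative settings and in 8 of 11 fits that left out a single library. Its log2 fold change there was between -1.34 and -1.26 over the settings and between -1.76 and -0.97 over the single omissions. Plxdc1, Plxdc2, Rpsa and Lrp6 were called in neither genotype, with log2 fold changes between -0.23 and 0.70. Plasminogen itself (Plg), which is made in the liver, was above 0 in 3 of 9 wild type laser libraries and in 1 of 4 Ceacam1-/- libraries without laser, and was listed at 0 in all the others. Vtn, the matrix protein vitronectin that binds plasminogen activator inhibitors and Plaur, gave log2 fold changes of -0.82 in wild type and 1.36 in Ceacam1-/- (adjusted p = 0.566 and 0.36).

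**Figure D4:**
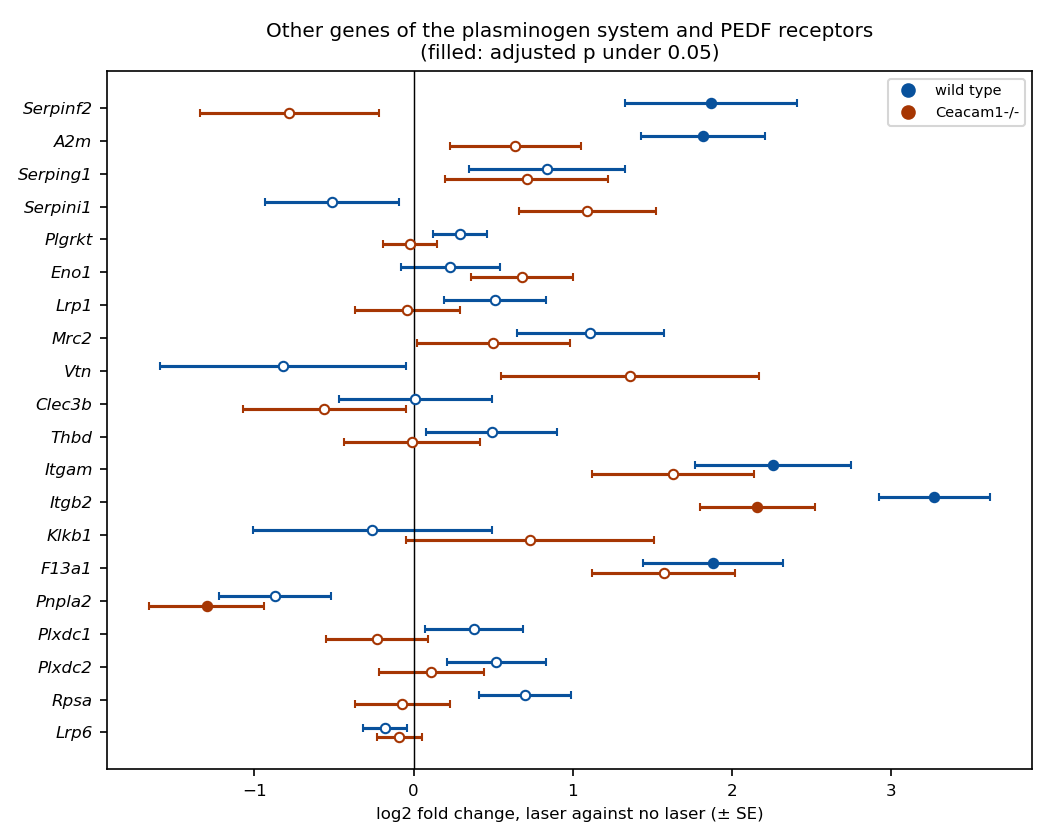
Log2 fold change with laser (± SE) of the 20 other genes of the system and PEDF receptors that were tested, in wild type (blue) and Ceacam1-/- choroid (orange), where filled points have an adjusted p under 0.05. Filled points are Serpinf2, A2m, Itgam, Itgb2 and F13a1 in wild type and Itgb2 and Pnpla2 in Ceacam1-/-.

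Markers of some cell types also changed with laser, mainly those of myeloid cells and neutrophils. The summed count of 8 myeloid markers, of which Lyz2 was the most abundant, had a median of 12421 normalized counts in wild type without laser and 70040 with laser, and of 11624 and 56780 in Ceacam1-/-. With laser, 7 of the 8 myeloid markers were called higher in wild type and 6 of 8 in Ceacam1-/-. The summed count of 5 fibroblast markers, led by Col1a1, had medians of 123431 and 239396 in wild type and 96840 and 352019 in Ceacam1-/-, and 1 of the 5, Lum, was called higher in each genotype. The 6 markers of retinal pigment epithelium, led by Ttr, had medians of 327874 and 352845 in wild type and 326368 and 159008 in Ceacam1-/-, and none was called. Neutrophil markers, led by Csf3r, had summed medians of 108 and 488 normalized counts in wild type and 140 and 654 in Ceacam1-/-, and of the 4 tested 3 were called higher in wild type and 2 in Ceacam1-/-. The 6 muscle markers, led by Acta1, had summed medians of 335852 and 243766 in wild type and 391983 and 71552 in Ceacam1-/-, and none was called. Lens markers, led by Cryaa, had summed medians of 443 and 3252 in wild type and 297 and 4554 in Ceacam1-/-. On the log2 scale 4 of the 5 lens markers were positive in wild type and 3 in Ceacam1-/-, and the rest were negative. The keratins had 13693 and 255 in wild type and 3477 and 190 in Ceacam1-/-. The summed photoreceptor markers had medians of 154659 and 42099 in wild type and 19698 and 124865 in Ceacam1-/-. No marker of these 3 lists was called. Among 5 retinal glia markers, led by Vim, the summed medians were 28985 and 42033 in wild type and 35343 and 31896 in Ceacam1-/-. Vim alone was called, higher in wild type (1.35, adjusted p = 0.016, limma). Only 2 of the 5 were positive in each genotype, with median log2 fold changes of -0.14 in wild type and -0.16 in Ceacam1-/-. Endothelial markers had summed medians of 19889 and 28372 in wild type and 26312 and 25724 in Ceacam1-/-, with 7 of 7 and 1 of 7 positive. For pigment cell markers these were 50467 and 79680, and 72016 and 87457, with 4 of 4 and 0 of 4 positive on the log2 scale. Erythroid markers had 917 and 2301 in wild type and 2365 and 2466 in Ceacam1-/-. None of the endothelial, pigment cell or erythroid markers was called. The part of these cells in the changes of Plau, Plaur and Serpinf1 was not tested.

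Across libraries, Plaur varied with the myeloid sum and Serpinf1 with the fibroblast sum, but neither gene with that sum alone. These are among 96 relations between 8 genes and 12 marker sums, of which 24 had an adjusted p under 0.05 for Pearson's r, computed on log2 deviations from the group means over 24 libraries, so that the laser difference itself does not enter. For Plaur and the myeloid sum Pearson's r was 0.81 (permutation test, adjusted p = 0.00096) and Spearman's coefficient 0.85 (adjusted p = 0.00048), with r = 0.80 without the 2 farthest libraries. For Serpinf1 and the fibroblast sum r and Spearman's coefficient were both 0.97 (permutation test, adjusted p = 0.00048), with r = 0.95 without the 2 farthest libraries. Plaur was related as closely to the fibroblast sum (r = 0.83, permutation test, adjusted p = 0.0012) and Serpine2 more closely than Plaur (r = 0.92, adjusted p = 0.00048). Serpinf1 also varied with the sums of pigment cell markers (r = 0.81, permutation test, adjusted p = 0.00931) and endothelial markers (r = 0.76, adjusted p = 0.0191). Within the 9 wild type laser libraries these 4 r values were 0.39, 0.34, -0.11 and -0.36. The fibroblast sum includes Dcn, the gene most like Serpinf1 below. The endothelial sum was also related to Plaur (r = 0.75, permutation test, adjusted p = 0.00608) and Plau (r = 0.60, adjusted p = 0.0191). Within the wild type laser group r with this sum was 0.23 for Plaur and 0.59 for Plau. Since the Ceacam1-/- laser libraries fall into separate sets, the 9 wild type laser libraries were also taken alone, where r was 0.79 for Plaur and the myeloid sum (exact permutation p = 0.0103, adjusted p = 0.328) and 0.79 for Serpinf1 and the fibroblast sum (exact permutation p = 0.00434, adjusted p = 0.208). Without the 2 farthest of these 9, r was 0.85 for the first and 0.54 for the second. Plau was less closely related to the myeloid sum (r = 0.59, permutation test, adjusted p = 0.00821) and the fibroblast sum (r = 0.64, adjusted p = 0.0357). Within the wild type laser group these were 0.43 and -0.11, and Plau varied most with the retinal glia sum there (r = 0.89, exact permutation p = 0.00131, adjusted p = 0.126), with which r was 0.00 over the 24 libraries. For Serpinf1 and the retinal pigment epithelium sum r was 0.44 over the 24 libraries (permutation test, adjusted p = 0.242) and 0.04 within the wild type laser group.

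**Figure D5:**
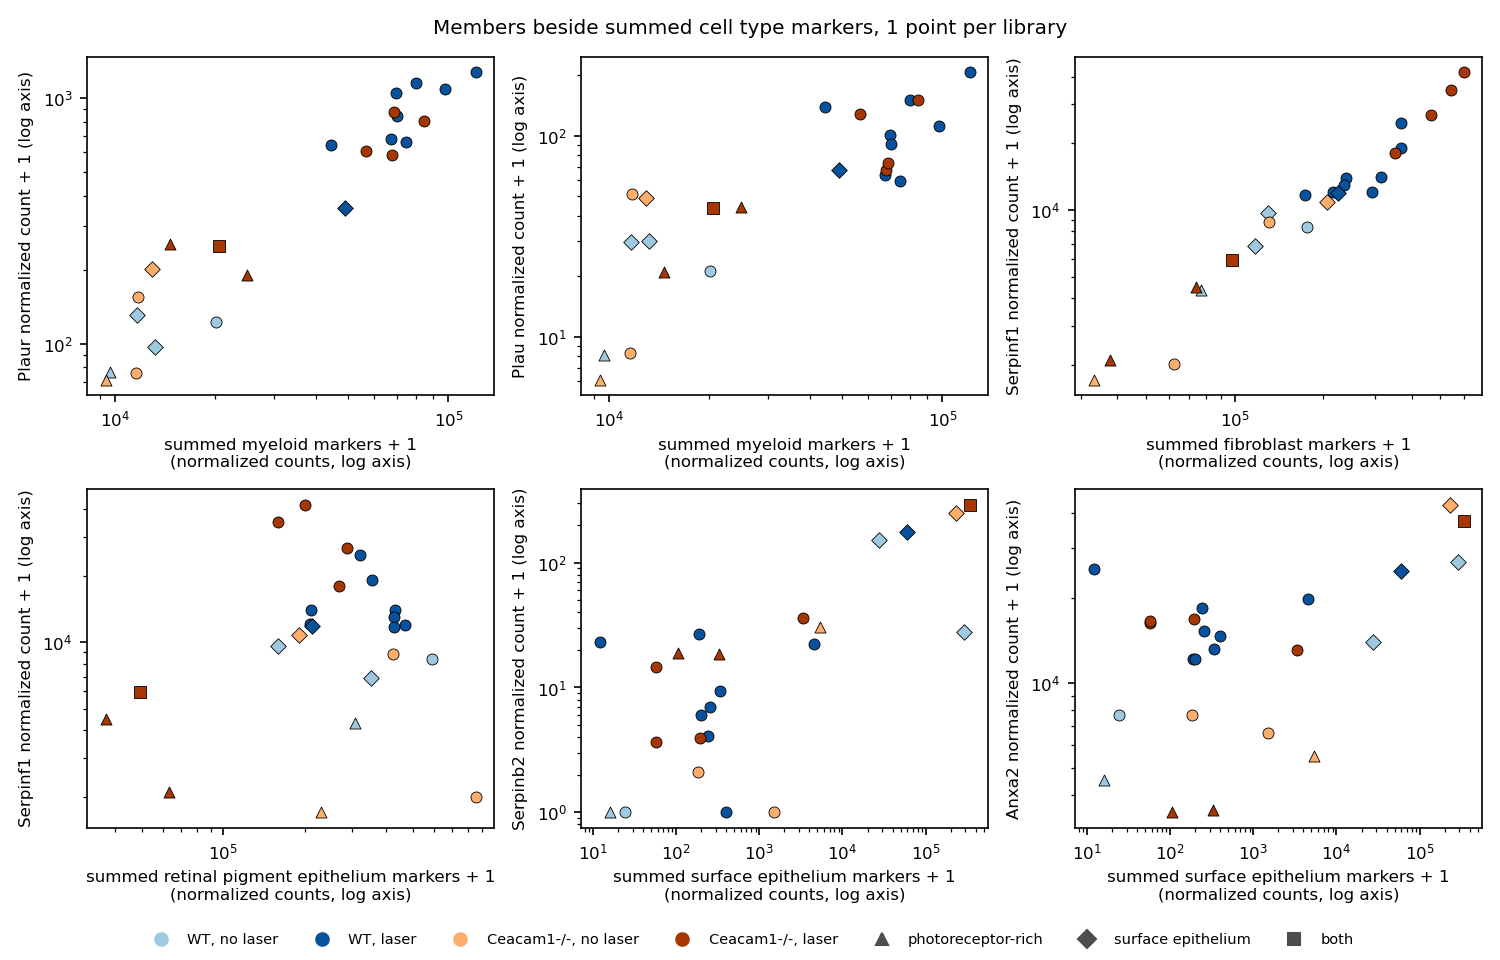
Normalized count plus 1 of Plaur, Plau, Serpinf1, Serpinb2 and Anxa2 (vertical, log axis) against the summed normalized count plus 1 of a cell type's markers (horizontal, log axis), 1 point per library, colored by group and shaped by the sets of libraries that stood apart. The keratin-rich libraries, above 20000 on the horizontal axis, hold 4 of the 5 highest counts of Serpinb2 and of Anxa2.

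Relations among the genes were computed for 5 pairs in the same way. Plau and its receptor Plaur had r = 0.76 and a Spearman coefficient of 0.78 over 24 libraries (permutation test, adjusted p = 0.000375 and 0.00025), with r = 0.73 without the 2 farthest libraries, and r = 0.68 within the 9 wild type laser libraries (exact permutation p = 0.0398, adjusted p = 0.0995). Anxa2 and S100a10, the subunits of a single complex, had r = 0.94 and a Spearman coefficient of 0.92 (permutation test, adjusted p = 5e-05 for each, from the smallest p that the permutations can give), with r = 0.91 without the 2 farthest libraries. Within the wild type laser group their r was 0.88 (exact permutation p = 0.00229, adjusted p = 0.0115). Plat and Serpine2 had r = 0.73 and a Spearman coefficient of 0.60 (permutation test, adjusted p = 0.0126 and 0.0306), but r was -0.05 within the wild type laser group, so that the relation rests on other libraries. No relation was detected between Plau and Serpinb2 (r = 0.08, permutation test, adjusted p = 0.761) or between Serpinf1 and Rpe65, the retinoid isomerase of the retinal pigment epithelium (r = 0.45, adjusted p = 0.138).

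Genes with the most similar pattern were ranked by Pearson's r of log2 values over the 24 libraries among 15736 genes, as a description that includes the group differences, depth and tissue content the libraries share. Dok2, H2-Ab1 and Sting1 were nearest to Plau, each with r = 0.94. Akr1b8 (0.98), Cd14 and Tnc (0.97 each) were nearest to Plaur, Cd14 being the endotoxin co-receptor of monocytes and one of the 8 myeloid markers. Icam1 (0.98) was nearest to Serpine2 and Gli3 (0.92) to Plat. Dcn, the matrix proteoglycan decorin, was nearest to Serpinf1 (0.99), followed by Itgbl1 and Tnmd (0.97 each). For the genes with high counts in keratin-rich libraries these were Ehf, an epithelial transcription factor, for Serpinb2 (0.86), B3gnt8 for Anxa2 (0.95) and S100a6 for S100a10 (0.96).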

How the data were processed

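Choroidal RNA was made into SMART-Seq libraries and sequenced by the study. Per the labels and the study's methods, the authors checked reads with FastQC 0.11.5, quantified them with Salmon 1.10.3 against mouse GRCm39 and normalized the estimated counts with DESeq2 1.44.0. The deposited values are a signal of this kind: normalized counts, with differences between libraries in size and in average transcript length factored out but not the length of each gene, in 24 columns all mapped to samples. They summed to between 23704346 and 35094410 per library. Read depth is not recoverable from them, so no count model was run. Of 56065 genes, 55563 matched the annotation by identifier.

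Values were tested as log2(normalized count + 1) with limma 3.58.1 (R 4.3.3; trend) and Benjamini-Hochberg adjustment over all genes with a mean of at least 10, with a threshold of 0.05. The laser and interaction fits used all 24 libraries, and genotype fits the 8 or 16 libraries compared. Fold changes on this scale understate changes of low genes. Relations used 100000 permutations, or every permutation in groups of 9. The script was tested on simulated data. The members, lists and tests were chosen with earlier results of these data known. Other pseudocounts (0.5, 10), filters (none, 50), scalings, limma options, a Y-linked covariate, fits to the compared libraries alone and leaving out each library were tried. Omission of the photoreceptor-rich and keratin-rich libraries, and the relations with marker sums, were chosen after seeing the data. Genes were named if they were members, among the 3 most alike to each, pathway genes that passed the test or were needed to describe their list, or the most abundant gene of a marker list; Lum, Rpe65 and Ceacam1 were named besides.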

Additional observations from a re-analysis of the deposited data

Results flagged for a closer look

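In 1 of 32 sets of values (8 genes in 4 groups), where chance alone marks about 1 in 20, a library lay far from the others: Anxa2 in the Ceacam1-/- group without laser was at 42869 normalized counts in library 28, beside 7658 in the nearest library. On the log2 scale, the gap was 0.839 of the range of the group, against a critical value of 0.829 for 4 libraries. Library 28 is one of the 5 libraries rich in surface keratins.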

How the results depend on the processing

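With laser in wild type 2 members were called (5.28% of all genes), 5 with array weights (32.6%) and 5 with only the wild type libraries fitted (11.6%), and between 1 and 2 when single libraries were left out (1 without library 21, with 2.4% of all genes). In Ceacam1-/- 1 member was called (3.72% of all genes), 3 with array weights (17.8%), 0 with only the Ceacam1-/- libraries fitted (0.187%) and 5 without the photoreceptor-rich libraries (14.9%), and between 0 and 1 when single libraries were left out (0 without library 25, with 0.742% of all genes). The cause was not tested. Plaur in wild type kept its call in every setting (2.8 to 3.21). No member was called for the interaction or for genotype in any setting tried. Counts over all genes moved as well, from 1053 to between 491 and 6505 in wild type and from 742 to between 38 and 3551 in Ceacam1-/-. For genotype with laser they moved from 4 to between 2 and 297, and genotype without laser gave 0 or 1. When single libraries were left out these counts were between 479 and 1162, between 148 and 2488, between 4 and 61, and 0 or 1. Pnpla2 in Ceacam1-/- lost its call in 7 of 13 other settings, while its log2 fold change stayed between -1.34 and -1.26.

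Values that changed sign, none of them called in either setting, were as follows on the log2 scale. With laser in wild type, Serpinb2 was -0.15 with a pseudocount of 10, -1.71 with array weights and -0.47 without the photoreceptor-rich libraries, and S100a10 was -0.12 and -0.09 under the last 2 of these. For the interaction, Serpinb2 was -0.27 with quantile normalization, -0.41 with the Y-linked covariate and -1.49 without the keratin-rich libraries. Array weights gave 0.36 for Anxa2 and 0.06 for S100a10, and leaving out the photoreceptor-rich libraries gave 0.19 for Plat, 0.33 for Serpine2 and 0.04 for Anxa2. For genotype without laser, Plau was 0.06 with a pseudocount of 10, 0.41 with array weights, 0.06 without the photoreceptor-rich and 0.07 without the keratin-rich libraries. Anxa2 was 0.01 with upper-quartile scaling and 0.15 without the keratin-rich libraries, where Plaur was -0.04. Array weights gave 0.47 for Serpine2 and -3.12 for Serpinb2, and leaving out the photoreceptor-rich libraries gave -0.17 for Plat, 0.01 for Serpine2 and -1.0 for Serpinb2. For genotype with laser, array weights gave 0.00 for Plau, 0.06 for Serpine2, -0.10 for Serpinb2, 0.65 for Serpinf1 and 0.08 for S100a10, the covariate gave 0.00 for S100a10, and leaving out the photoreceptor-rich libraries gave 0.02 for Plat, 0.34 for Serpine2, -0.31 for Serpinb2 and 1.02 for Serpinf1.

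Leaving out single libraries changed the sign of further values that were not called. With laser in wild type the ranges were -0.47 to 1.94 for Serpinb2 and -0.09 to 0.6 for S100a10. With laser in Ceacam1-/- they were -0.31 to 0.36 for Plat, -0.1 to 0.49 for Serpine2, -0.44 to 2.22 for Serpinb2, -0.17 to 0.82 for Anxa2 and -0.67 to 0.15 for S100a10. For the interaction they were -1.22 to 1.69 for Serpinb2 and -0.95 to 0.18 for Anxa2. For genotype without laser they were -0.54 to 0.49 for Plau, -0.15 to 0.35 for Plaur, -0.12 to 0.55 for Plat, -0.32 to 0.13 for Serpine2, -1.0 to 1.9 for Serpinb2, -0.71 to 0.41 for Anxa2 and -0.16 to 0.68 for S100a10, and for genotype with laser -0.52 to 0.2 for Serpinf1.

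No paired analysis was possible because library numbers are unique and groups share no replicate number. Serpinb2, with a median of 15.5 normalized counts, had the largest standard errors, and its changes could not be resolved.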
